A study of Mus musculus with 31 samples.

Results

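The fat pad that lies along the epididymis, a visceral depot of white adipose tissue (eWAT), was compared between male F1 offspring of the HFLF arm (6 libraries, HFLF 1 to HFLF 6) and of the LF arm (4 libraries, LF 2, LF 3, LF 5 and LF 6). These 10 libraries were chosen by their titles from the 31 of the series, which also holds 6 eWAT libraries of an HF arm and liver libraries of all arms. All offspring were wild-type C57BL/6 mice aged 24 weeks, which ate chow until 6 weeks of age and the LFD diet for the 18 weeks that followed. Since every animal ate the same diets, the arm tags LFD, HFD and HFLFD were read as the feeding history of the paternal line, a reading drawn from the series title alone. The comparison therefore sets offspring from a line that went through HFLFD against offspring from a line on LFD throughout, with the offspring's own feeding held equal.

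White fat stores triglyceride in large adipocytes, but most of its cell nuclei belong to other cells: mesothelium, endothelium, fibroblast-like progenitors, macrophages and lymphocytes. Adipocytes themselves rarely divide, and dividing cells in epididymal fat are mainly progenitors and tissue macrophages. Before a cell divides, Cdt1 loads the MCM helicase on replication origins, enzymes such as thymidine kinase supply nucleotides, and Dnmt1 with Uhrf1 copies DNA methylation onto the new strand, after which cyclin B, Top2a and the spindle proteins carry the cell through mitosis. Genes of DNA replication are classically under E2F transcription factors, and genes of mitosis under CCAAT boxes bound by NF-Y and the cell cycle genes homology region (CHR).

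The deposited table held 15987 genes, with library totals over these genes between 9278083 counts in LF 3 and 27230205 counts in HFLF 2. A count of 3, taken as the detection floor, was worth 0.115 CPM in HFLF 2 and 0.318 CPM in LF 3. Levels are CPM, counts scaled to a common library size by edgeR's trimmed mean of M values (TMM). Fold changes are log2 values of HFLF minus LF ± SE from edgeR's quasi-likelihood test, so that a negative value means a lower level in HFLF. After Benjamini-Hochberg adjustment over the whole table, 0 of 15987 genes passed 0.05, and the smallest adjusted p was 0.18, for Mcm5 and Tk1. At an unadjusted p under 0.05, edgeR placed 1129 genes lower in HFLF (7.06%) and 604 higher (3.78%), and limma voom also called 0 genes after adjustment. DESeq2 called 62 genes at an adjusted p under 0.05, 54 lower and 8 higher in HFLF. Without LF 5, edgeR called 13 genes, all lower in HFLF, among them Mcm5, Mcm6, Tk1, Cdt1, Pclaf, Dnmt1, Espl1, Ccnb2, Marco and Srebf2. The genes described here are therefore ordered by unadjusted p-values and by whether the HFLF and LF libraries overlapped. The 6 HFLF libraries all lay below the 4 LF libraries for 114 genes (0.713% of those tested) and all above them for 82 (0.513%).

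The pad's identity was plain in every library. Fabp4, the adipocyte fatty acid carrier, stood at 15413, 17088 and 19726 CPM as the lowest, median and highest HFLF library, against 13783, 14200.1, 17363 and 15656 CPM in LF 2, LF 3, LF 5 and LF 6. None of the epididymis markers sought was in the table. Several libraries nevertheless stood high for markers of hepatocytes, testis or lymphocytes, and these were spread unevenly over the arms. LF 2 stood apart for B cell markers, with a list mean of 6.49 log2 CPM, against 1.28 to 2.73 in the HFLF libraries and 2.13 to 2.84 in the other LF libraries. Hepatocyte markers were highest in LF 5 and LF 3 (5.09 and 4.82 log2 CPM), with 3.04 in LF 2 and 2.99 in LF 6, against 3.52 in HFLF 1 and 1.00 to 1.86 in the rest of HFLF. All 4 LF libraries thus lay above 5 of the 6 HFLF libraries for these markers. Testis markers were highest in LF 6 and LF 3 (1.72 and 1.64 log2 CPM), against -1.26 to -0.84 over the HFLF libraries. HFLF 6 was low in mesothelium markers, at 0.59 log2 CPM, against 3.75 to 4.89 in the other HFLF libraries and 3.58 to 4.39 in LF. Of the 18 members, 0 were at 0 counts in HFLF 6, but 5 were under the floor of 3 counts. The heat map of list means by library shows these departures.

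**Figure D1:**
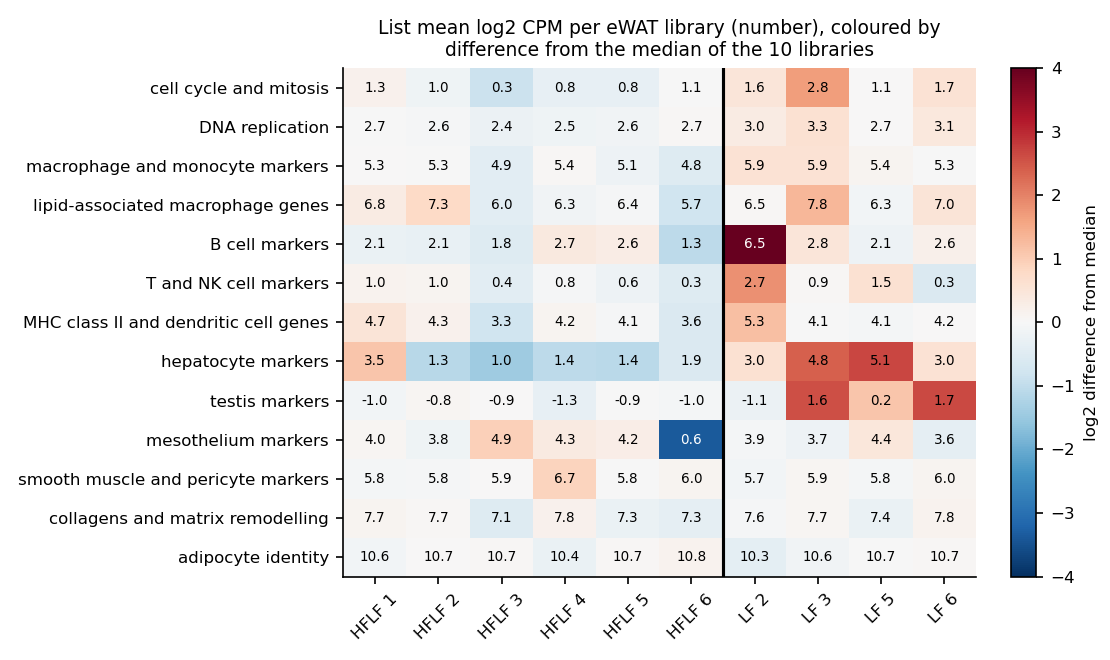
Mean log2 CPM of 13 gene lists (rows) in the 6 HFLF libraries (left of the line) and the 4 LF libraries (right), printed in each cell and coloured by the difference from the median of the 10 libraries. B cell markers reach 6.5 in LF 2, hepatocyte markers are highest in LF 3 and LF 5, testis markers in LF 3 and LF 6, and mesothelium markers are at 0.6 in HFLF 6, while the cell cycle row is lower through most of HFLF.

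The genes with the smallest p-values were those of DNA replication. Of the 15 protein-coding genes that led the lower side, 5 act in replication or in copying its marks (Mcm5, Tk1, Mcm6, Cdt1 and Dnmt1), and Pclaf, Espl1 and Ccnb2 also act in dividing cells. The stretches upstream of 3 of these genes are given first, because they carry the sequence elements for which replication and mitosis genes are known. They are the 200 bases before the RefSeq start on GRCm38.p6, written 5′ to 3′ on the gene's strand. Capitals mark every match, on either strand, to an E2F element (TTTNNCGC), a CCAAT box (CCAAT, or ATTGG where it lies on the other strand) or a CHR (TTTGAA).
Mcm5, chr8:75109309-75109508, plus strand: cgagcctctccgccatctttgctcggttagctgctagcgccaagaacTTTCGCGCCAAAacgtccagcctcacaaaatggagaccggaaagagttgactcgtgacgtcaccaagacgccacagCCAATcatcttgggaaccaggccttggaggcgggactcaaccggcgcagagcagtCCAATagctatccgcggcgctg
Mcm6, chr1:128359706-128359905, minus strand: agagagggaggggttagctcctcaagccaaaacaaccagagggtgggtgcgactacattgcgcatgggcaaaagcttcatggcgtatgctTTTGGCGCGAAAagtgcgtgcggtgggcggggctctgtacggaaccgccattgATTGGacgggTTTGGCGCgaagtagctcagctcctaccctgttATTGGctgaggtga
Ccnb2, chr9:70421555-70421754, minus strand: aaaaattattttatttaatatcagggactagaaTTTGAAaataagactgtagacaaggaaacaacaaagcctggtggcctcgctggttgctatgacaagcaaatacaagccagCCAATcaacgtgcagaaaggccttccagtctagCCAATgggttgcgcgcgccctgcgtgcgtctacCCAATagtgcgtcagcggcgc
Mcm5 holds 2 E2F matches, which overlap on opposite strands in one run of capitals, and 2 CCAAT boxes. Mcm6 holds 3 E2F matches, of which an overlapping pair forms one run, and 2 CCAAT boxes. Ccnb2 holds 3 CCAAT boxes and 1 CHR, and no E2F match in this window. Over the 250 bases before the start, the E2F element was present in 8 of the 25 replication genes with a promoter in the RefSeq table (32%), in 1 of the 25 mitosis genes (4%) and in 6.85% of the 11570 tested genes that had one. A CCAAT box was present in 15 of 25 replication genes (60%), 20 of 25 mitosis genes (80%) and 35.9% of all, and a CHR in 3 (12%), 8 (32%) and 11% of these sets. These matches describe the sequences and show no binding.

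In GENCODE M21 on GRCm38, Mcm5 lies at chr8:75109569-75128439 on the plus strand, Tk1 at chr11:117815526-117826092 and Mcm6 at chr1:128331590-128359664 on the minus strand, and Cdt1 at chr8:122568015-122573554 on the plus strand. Mcm5, a subunit of the MCM helicase that opens DNA for replication, had 4.85, 6.34 and 8.37 CPM as the lowest, median and highest of the HFLF libraries, against 12.97, 16.5, 9.12 and 18.6 CPM in LF 2, LF 3, LF 5 and LF 6. The groups did not overlap, although LF 5 came close to HFLF 1. Its log2 fold change was -1.14 ± 0.19 (adjusted p = 0.18 by edgeR with Benjamini-Hochberg adjustment). Tk1, the thymidine kinase of the salvage pathway, had 2.71, 3.82 and 4.51 CPM in HFLF, against 8.85, 12.8, 5.55 and 10.5 CPM in LF. Every LF library exceeded every HFLF library, with LF 5 again the lowest of LF, and the log2 fold change was -1.30 ± 0.22 (adjusted p = 0.18). Mcm6, another helicase subunit, had 12.5, 14.7 and 15.7 CPM in HFLF, against 23.0, 26.6, 16.7 and 23.8 CPM in LF. It differed by -0.63 ± 0.12 (adjusted p = 0.219), without overlap. Cdt1, the licensing factor that loads the helicase, had 3.14, 3.87 and 5.10 CPM in HFLF, against 8.85, 13.5, 5.49 and 10.4 CPM in LF. Its log2 fold change was -1.23 ± 0.23 (adjusted p = 0.219), again without overlap.

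**Figure D2:**
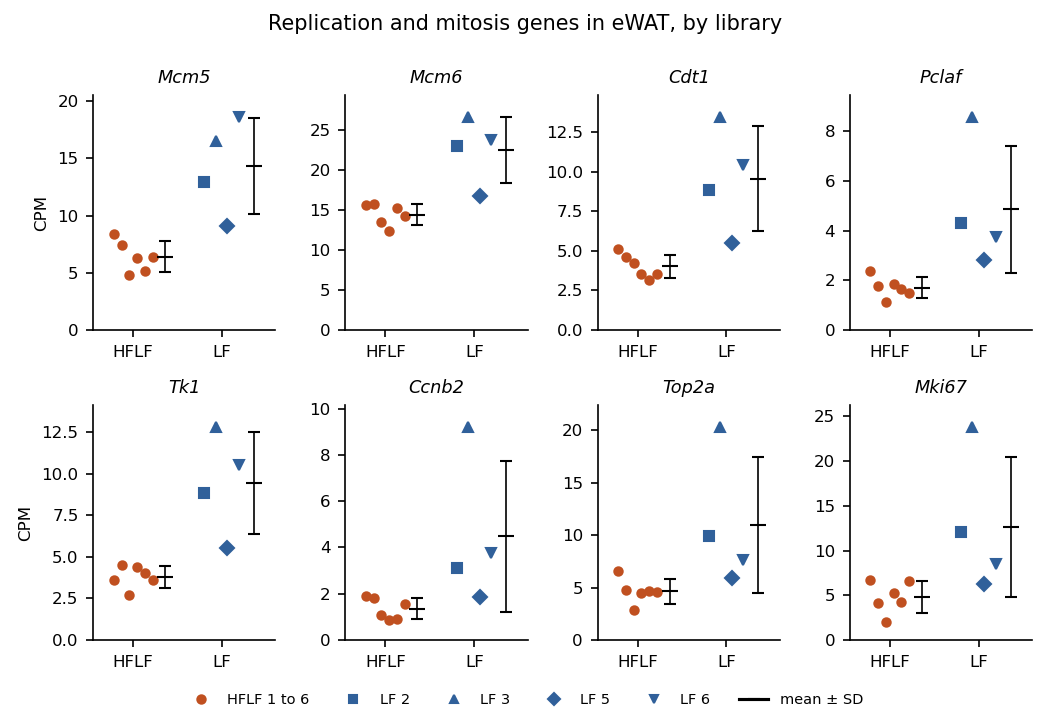
CPM of 8 replication and mitosis genes in each eWAT library, HFLF (circles) left of LF (one marker shape per library), with the mean and SD of each group as bars. LF 3 is highest for 7 of the 8 genes and LF 5 is the lowest LF library in all 8. Mcm5, Mcm6, Cdt1, Pclaf and Tk1 do not overlap between the arms, whereas Ccnb2, Top2a and Mki67 overlap at LF 5.

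Pclaf, a protein that binds the replication clamp, had 1.14, 1.70 and 2.39 CPM in HFLF, against 4.32, 8.59, 2.81 and 3.76 CPM in LF. LF 3 was the highest by far, and the arms did not overlap (log2 fold change -1.48 ± 0.29, adjusted p = 0.219). Dnmt1, the maintenance DNA methyltransferase, had 24.1, 26.8 and 29.8 CPM in HFLF, against 35.5, 41.5, 31.1 and 38.0 CPM in LF. The difference was small but regular, at -0.42 ± 0.09 (adjusted p = 0.266), with all LF libraries above HFLF. Uhrf1, its partner at hemimethylated DNA, had 1.77, 3.14 and 5.98 CPM in HFLF, against 7.77, 9.44, 4.59 and 11.1 CPM in LF. Here LF 5 lay within the HFLF range (-1.21 ± 0.29, adjusted p = 0.266). Among the 20 DNA and histone methylation enzymes listed, these 2 and Ezh2 (-0.38 ± 0.14, adjusted p = 0.352), a Polycomb methyltransferase, were lower at an unadjusted p under 0.05 and 0 were higher. Over all genes tested, 7.06% were lower by this measure. The replication clamp Pcna itself had 31.9, 37.8 and 41.8 CPM in HFLF, against 40.5, 56.5, 39.8 and 53.0 CPM in LF, an overlap of the arms at LF 2 and LF 5 with a smaller difference (-0.33 ± 0.11, adjusted p = 0.282).

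The replication list as a whole differed by less than its leading members. Of its 30 genes, 28 had a negative fold change, 16 were lower and 0 higher at an unadjusted p under 0.05, and 5 did not overlap between the arms, with a median log2 fold change of -0.32. Over all genes tested the median was 0.01, and 47.9% had a negative fold change. The 16 of 30 stand beside the 7.06% of all genes that were lower, and the 5 beside the 0.713% lower without overlap. The list was chosen with earlier results of these data known. Without LF 3 the median was -0.24 and 11 members were lower at an unadjusted p under 0.05, and without LF 3 and LF 6 it was -0.22 with 7. The leading genes, chosen by p-values from these same libraries, kept a negative fold change in every alternative. Their smallest changes over all alternatives were -0.79 for Mcm5, -0.94 for Tk1 and -0.47 for Mcm6. Leaving out each of the 10 libraries in turn, the fold change of Mcm5 lay between -1.31 and -0.99, that of Tk1 between -1.49 and -1.12 and that of Mcm6 between -0.75 and -0.55.

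Genes of mitosis differed more in size and less regularly. All 30 of the cell cycle and mitosis list had a negative fold change, with a median of -1.08. Of these, 27 were lower at an unadjusted p under 0.05, and 4 did not overlap between the arms. Over all genes tested, these shares were 7.06% and 0.713%. Ccnb2, a B-type cyclin, had 0.883, 1.31 and 1.91 CPM in HFLF, against 3.11, 9.22, 1.85 and 3.76 CPM in LF. LF 3 stood highest and LF 5 lay within the HFLF range (-1.68 ± 0.37, adjusted p = 0.266). Top2a, the topoisomerase that untangles chromosomes, had 2.85, 4.61 and 6.62 CPM in HFLF, against 9.93, 20.4, 5.87 and 7.61 CPM in LF, a difference of -1.21 ± 0.29 (adjusted p = 0.266). Mki67, which codes for the proliferation antigen Ki-67, had 2.07, 4.71 and 6.70 CPM in HFLF, against 12.02, 23.9, 6.25 and 8.55 CPM in LF (-1.39 ± 0.33, adjusted p = 0.266). In both genes LF 3 was the highest library, LF 2 came next, and LF 5 overlapped HFLF. Espl1, the protease separase that frees sister chromatids, had the tightest spread, with 3.35, 3.86 and 4.05 CPM in HFLF, against 5.61, 7.84, 4.91 and 7.18 CPM in LF. It showed no overlap and a log2 fold change of -0.74 ± 0.14 (adjusted p = 0.219).

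The other leaders of the lower side were less closely tied to the cell cycle. Tmem8, a membrane protein, had 8.61, 11.1 and 13.2 CPM in HFLF, against 17.5, 24.6, 15.2 and 16.8 CPM in LF, without overlap (-0.74 ± 0.15, adjusted p = 0.266), while in liver it had a log2 fold change of 0.04 and a tissue difference of -0.77 (adjusted p = 0.416). Ssbp4, a DNA-binding protein, was also free of overlap, at 45.1, 50.1 and 57.4 CPM in HFLF, against 67.1, 68.8, 57.7 and 63.9 CPM in LF (-0.34 ± 0.08, adjusted p = 0.266). Epop, an adaptor of Polycomb repressor complexes, averaged 0.389 CPM in HFLF, against 1.19 CPM in LF, with overlap at LF 6 (-1.56 ± 0.35, adjusted p = 0.266). Gm21887, a predicted gene of the X chromosome, differed by -1.68 ± 0.38 (adjusted p = 0.266), but its reads may be shared with near-identical copies, so this value is uncertain.

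The size of the mitosis difference rested in large part on 1 library. Without LF 3 the list median was -0.65 and 16 members had an unadjusted p under 0.05, and without LF 3 and LF 6 it was -0.46 with 7. LF 3 was also the shallowest library and was high for testis and hepatocyte markers, so that values of other tissues move with this result, and their part in it was not tested. The HF arm, which was part of the same fit, lay between the others: the list mean was 0.88 ± 0.35 log2 CPM in HFLF and 1.32 ± 0.19 in HF, against 1.81 ± 0.70 in LF (SD, n = 6, 6 and 4). Mcm5 averaged 6.42 CPM in HFLF and 9.23 CPM in HF, against 14.3 CPM in LF. Set directly against HF, HFLF was lower for Mcm5 by -0.52 (adjusted p = 0.433), for Ccnb2 by -0.92 (adjusted p = 0.459) and for Tk1 by -0.44 (adjusted p = 0.535), and 3 of the 30 replication genes and 4 of the 30 mitosis genes were lower at an unadjusted p under 0.05, against a background of 4.43%. The HFLF and HF comparisons with LF share the LF libraries.

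In liver of the same arms, 11 of the mitosis genes and 26 of the replication genes could be set beside eWAT. The mitosis genes had a median log2 fold change of -1.03 in eWAT and 0.28 in liver, and for 6 of the 11 the tissue difference had an unadjusted p under 0.05, lower in eWAT (background 3.33% of 12735 genes). For Mki67 the difference between the tissues was -1.95 (adjusted p = 0.568) and for Tk1 it was -1.36 (adjusted p = 0.602). The replication genes had medians of -0.32 in eWAT and -0.23 in liver, and 3 of 26 differed between the tissues. Mcm5 had a negative log2 fold change in both tissues, -1.14 in eWAT and -0.91 in liver, and the tissues differed by -0.23 (adjusted p = 0.97). No gene passed the adjusted threshold for the tissue difference in edgeR (0 of 12735, with 424 lower and 320 higher in eWAT at an unadjusted p under 0.05), and 0 did in limma voom.

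Macrophage and monocyte genes also had lower means in HFLF. Of 22 markers, 20 had a negative fold change, with a median of -0.45. At an unadjusted p under 0.05, 16 were lower (background 7.06%) and 1 was higher (background 3.78%), namely Cd163 (0.42 ± 0.20, adjusted p = 0.458). In 3 of the markers the arms did not overlap, beside 0.713% of all genes lower without overlap. In bulk tissue, fewer cells of a type and less RNA per cell cannot be told apart. C1qc, a chain of complement C1q that tissue macrophages make, had 133, 167 and 195 CPM in HFLF, against 276, 262, 200.01 and 224 CPM in LF. All LF libraries lay above HFLF, LF 5 only just (-0.54 ± 0.14, adjusted p = 0.282). C1qb, its partner chain, had 114, 167 and 207 CPM in HFLF, against 261, 314, 196 and 223 CPM in LF (-0.63 ± 0.18, adjusted p = 0.282), with overlap at LF 5. Csf1r, the receptor for the macrophage growth factor CSF1, had 149.8, 196 and 219.7 CPM in HFLF, against 239, 309, 195 and 231 CPM in LF (-0.38 ± 0.14, adjusted p = 0.336). Ly6c2, a marker of blood-derived monocytes, had 1.15, 1.24 and 1.83 CPM in HFLF, against 10.2, 2.23, 3.76 and 2.14 CPM in LF, with no overlap and LF 2 far above the rest (-1.75 ± 0.42, adjusted p = 0.266), and its log2 fold change was -1.0 without LF 2.

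**Figure D3:**
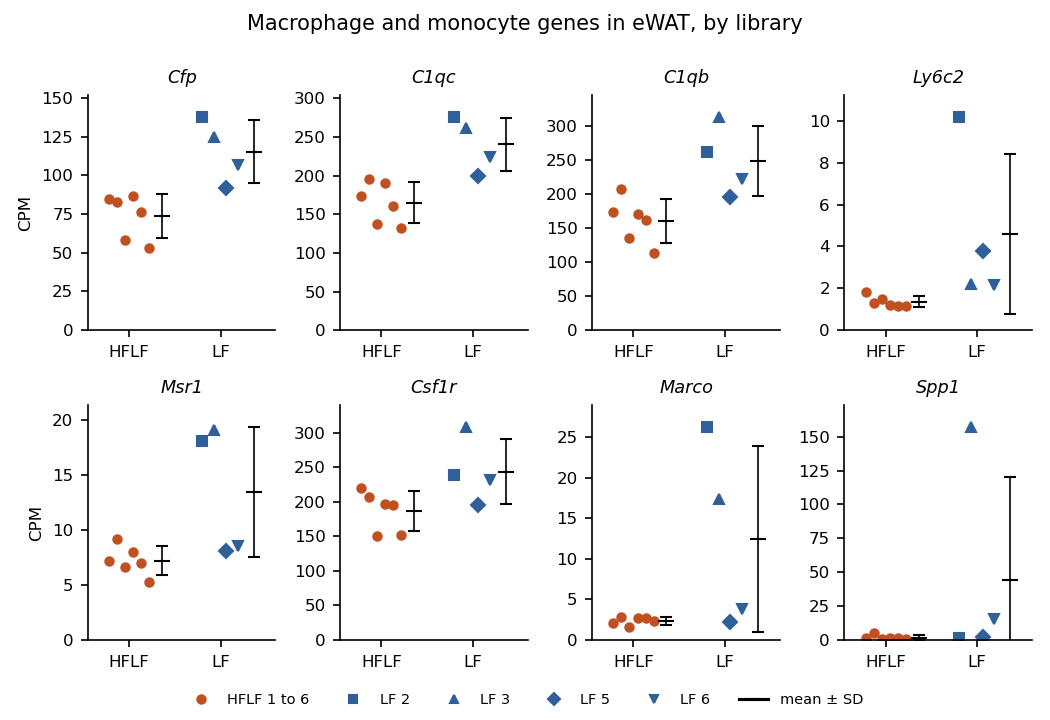
CPM of 8 macrophage and monocyte genes in each eWAT library, HFLF (circles) left of LF (one marker shape per library), with group mean and SD as bars, cut at 0 where the SD exceeds the mean. C1qc, Cfp and Ly6c2 do not overlap between the arms, while Marco is high only in LF 2 and LF 3, and Spp1 is highest in LF 3, at 157 CPM.

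Cfp, which codes for properdin, a complement factor of myeloid cells, had 53.4, 79.6 and 86.6 CPM in HFLF, against 138, 125, 91.8 and 107 CPM in LF. The arms did not overlap (-0.65 ± 0.14, adjusted p = 0.266), and the 6 HF libraries averaged 106 CPM, so that HFLF was also lower than HF (-0.52, adjusted p = 0.395). Marco, a scavenger receptor, had 1.57, 2.55 and 2.79 CPM in HFLF, against 26.3, 17.4, 2.23 and 3.85 CPM in LF: LF 2 and LF 3 were high and LF 5 lay within HFLF (-2.38 ± 0.52, adjusted p = 0.266). Arg1, the arginase of alternatively activated macrophages and of hepatocytes, had 0.738, 1.16 and 2.51 CPM in HFLF, against 2.90, 24.0, 5.10 and 4.27 CPM in LF. LF 3 was far above the others, and hepatocyte markers were high in LF 3 too (-2.70 ± 0.59, adjusted p = 0.266). Its fold change without LF 3 was -1.58.

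Other macrophage programmes followed single libraries. Of 15 genes of lipid-associated macrophages, the cells that gather around dying adipocytes in obese fat, 12 had a negative fold change. At an unadjusted p under 0.05, 1 was lower (background 7.06%). That gene was Spp1, osteopontin, with 0.570, 1.37 and 5.39 CPM in HFLF, against 1.62, 157, 2.42 and 15.8 CPM in LF, so that LF 3 alone set its mean. Trem2, a lipid receptor of these cells, had 4.02, 13.1 and 40.5 CPM in HFLF, against 15.5, 102, 11.5 and 34.2 CPM in LF, with wide overlap (-1.26 ± 0.74, adjusted p = 0.57). For the macrophage markers as a list, leaving out LF 3 gave a median of -0.42 with 8 members lower at an unadjusted p under 0.05, and leaving out LF 2 gave -0.41 with 11. The summed level of the 22 markers ran from 1399 to 2247 CPM over HFLF, against 2087 to 3455 CPM over LF, with 0 members undetected in any library. Set against HF instead of LF, 9 of the 22 were lower in HFLF at an unadjusted p under 0.05 (background 4.43%), and the median was -0.40.

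Lymphocyte genes were lower in HFLF by the largest medians of the immune lists, and LF 2 set most of that difference. Of 19 B cell markers, 18 had a negative fold change (median -3.09). At an unadjusted p under 0.05, 16 were lower (background 7.06%), with 0 free of overlap (background 0.713%). Ms4a1, which codes for CD20, had 0.927, 1.37 and 1.96 CPM in HFLF, against 76.9, 3.71, 1.28 and 2.14 CPM in LF. Cxcl13, the chemokine that draws B cells into follicles, had 1.15, 1.57 and 5.73 CPM in HFLF, against 292, 2.01, 2.55 and 2.91 CPM in LF. In both genes LF 2 was the only high library, and the other LF libraries lay in or near the HFLF range. Without LF 2 the B cell median was -0.49 with 1 member at an unadjusted p under 0.05, and the 30 T and NK cell markers, with a median of -1.03 and 14 such members over all libraries, had -0.32 with 0. Ltb, the lymphotoxin subunit that organises lymphoid tissue, did not overlap between the arms: it had 1.43, 3.33 and 3.82 CPM in HFLF, against 40.3, 4.77, 6.12 and 5.04 CPM in LF (-2.27 ± 0.63, adjusted p = 0.282). Its log2 fold change was -0.87 without LF 2. The list of MHC class II and dendritic cell genes had a median of -0.23, which turned to 0.06 without LF 2. The summed level of the B cell markers was 642 to 1173 CPM over HFLF, against 549 to 6639 CPM over LF.

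Interferon-induced genes had a small negative median, and LF 6, at a list mean of 4.03 log2 CPM, lay within the HFLF range of 3.95 to 4.16. Of 24, 21 had a negative fold change (median -0.26), and 5 were lower and 0 higher at an unadjusted p under 0.05 (background 7.06% and 3.78%). Oas1a, an antiviral oligoadenylate synthetase, had 3.04, 4.01 and 5.93 CPM in HFLF, against 7.498, 10.6, 6.89 and 5.90 CPM in LF, where LF 6 alone lay within HFLF (-0.89 ± 0.24, adjusted p = 0.282). Bst2, the virus tether tetherin, had 40.5, 47.4 and 62.9 CPM in HFLF, against 63.2, 55.8, 66.3 and 77.4 CPM in LF (-0.39 ± 0.15, adjusted p = 0.343). Of 17 measured genes on the cytokine and chemokine list, which also holds the enzymes Arg1 and Nos2, 8 were lower at an unadjusted p under 0.05 (background 7.06%). Arg1, Ltb and Cxcl13 were among the 8, and without LF 2 the count was 3.

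Markers of liver and testis also had lower means in HFLF, and where these transcripts came from was not tested. All 19 hepatocyte markers had a negative fold change, with a median of -2.50 and 16 at an unadjusted p under 0.05 (background 7.06% lower). Fga, a chain of the clotting protein fibrinogen made in liver, had 0.409, 0.642 and 4.94 CPM in HFLF, against 4.39, 16.6, 22.1 and 2.82 CPM in LF: HFLF 1 was the high library of its arm, and LF 3 and LF 5 those of theirs. Trf and Cyp2e1, which fat also expresses, were abundant in all libraries and made up most of the list's summed level, 5150 to 8970 CPM over HFLF, against 5377 to 10406 CPM over LF. All 13 testis markers had a negative fold change as well, and 7 had an unadjusted p under 0.05, beside the same background. That count was 1 without LF 3, 2 without LF 6 and 0 in limma voom. In a fit of the HFLF and LF libraries alone, 5 of the 13 passed the filter on low counts, with a median of -0.98. Their summed level was 44.4 to 59.5 CPM in HFLF, with 2 to 6 members at 0 counts in a library, against 48.8 to 96.3 CPM in LF, with 0 to 5 members at 0. Tnp2, a transition protein of sperm chromatin, had 9 counts over the 6 HFLF libraries, against 104 over the 4 LF libraries. The part of these tissues in the differences of other genes was not tested; with LF 3, LF 5 and HFLF 1 left out, the replication median was -0.32 with 16 members lower at an unadjusted p under 0.05, and the mitosis median was -0.94 with 24.

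**Figure D4:**
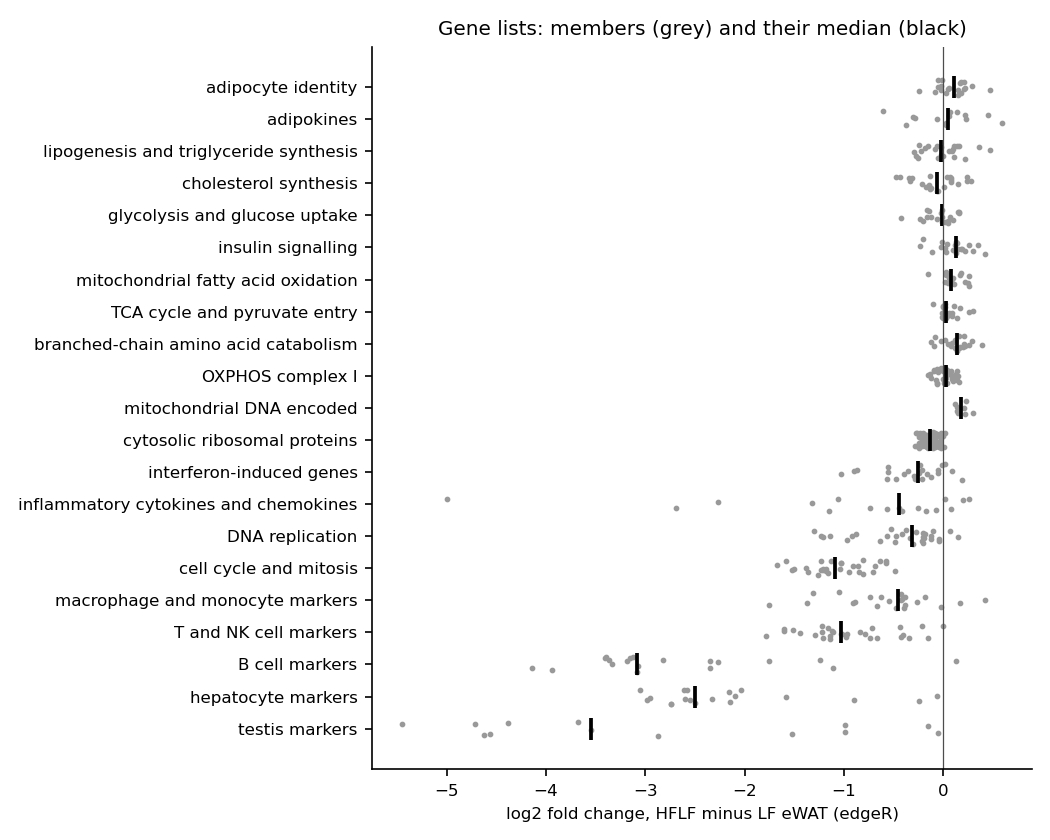
Log2 fold changes, HFLF minus LF, of the members (grey points) of 21 gene lists, with each list's median as a black bar and 0 as a line. Metabolic and adipocyte lists sit near 0, the replication, mitosis and macrophage lists lie below it, and the B cell, hepatocyte and testis lists reach medians between -2.50 and -3.55.

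On the higher side the differences were small and regular. Of the 15 protein-coding genes with the smallest p-values, 10 had every HFLF library above every LF library, beside 0.513% of all genes. The 15 were chosen by p-values from these same libraries, which favours such separation, so the count is a description only. Ctnnal1 (chr4:56810935-56865188, minus strand), alpha-catulin, a relative of the junction protein alpha-catenin, had 26.9, 31.4 and 37.9 CPM in HFLF, against 23.3, 17.6, 24.9 and 21.3 CPM in LF (0.52 ± 0.11, adjusted p = 0.266 by edgeR with Benjamini-Hochberg adjustment). Pkp2 (chr16:16213318-16272712, plus strand), plakophilin of desmosomes, had 142, 168 and 185 CPM in HFLF, against 124, 63.0, 129 and 102 CPM in LF, with LF 3 well below the rest (0.67 ± 0.15, adjusted p = 0.266). In liver Pkp2 had a log2 fold change of -0.09, and the tissue difference was 0.76 (adjusted p = 0.416). Setd3, a methyltransferase of actin, had 165, 175 and 183 CPM in HFLF, against 152, 140.4, 155 and 139 CPM in LF (0.26 ± 0.06, adjusted p = 0.266). Map3k20, the kinase ZAK that senses stalled ribosomes, had 49.0, 55.0 and 62.0 CPM in HFLF, against 47.8, 38.8, 47.1 and 40.8 CPM in LF (0.34 ± 0.08, adjusted p = 0.266). In both genes the libraries of each arm were close together and the arms did not cross.

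**Figure D5:**
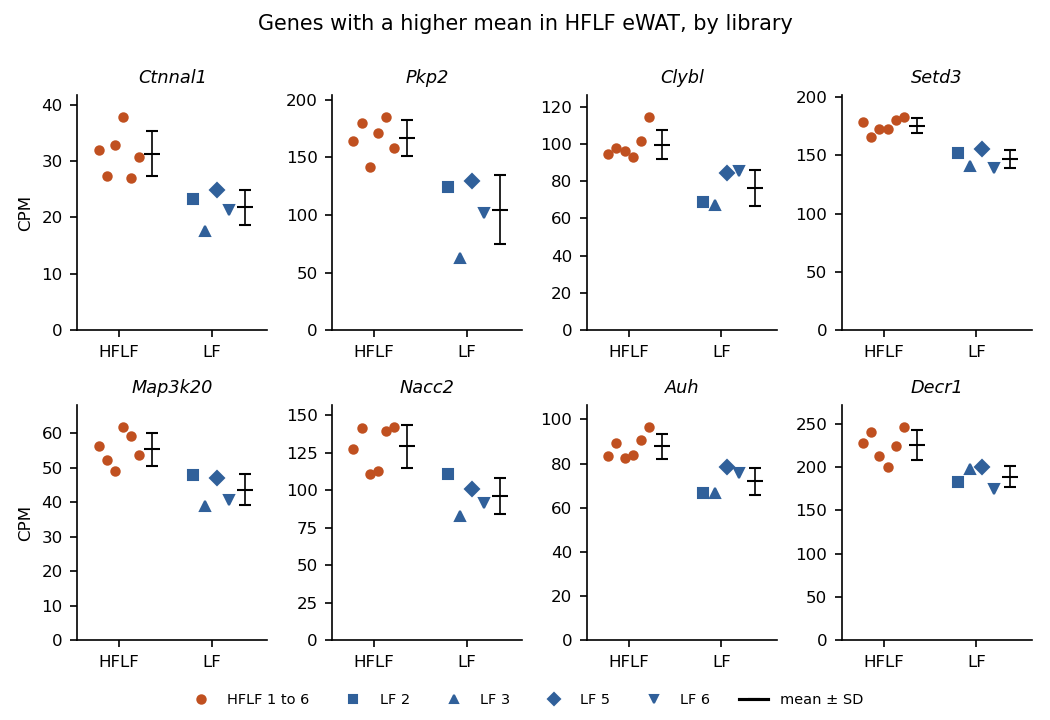
CPM of 8 genes with a higher mean in HFLF, by eWAT library, HFLF (circles) left of LF (one marker shape per library), with group mean and SD as bars. In all 8 genes the HFLF libraries lie above the LF libraries, with the smallest gaps at Nacc2 and Decr1. The genes have small p-values from these same libraries, which favours such separation. Leaders of the higher side that overlapped between the arms (Ahcyl2, Ptger3, Msrb3, Etfrf1 and Odr4) are not shown. Separation in all 8 therefore follows from the choice of genes.

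Genes of mitochondrial acyl-CoA metabolism were among the higher ones. Clybl, an enzyme that breaks down citramalyl-CoA in mitochondria, had 92.7, 96.9 and 115 CPM in HFLF, against 68.7, 67.0, 84.3 and 85.3 CPM in LF (0.38 ± 0.09, adjusted p = 0.266). HF averaged 78.2 CPM, so that Clybl was higher in HFLF than in HF too (0.35, adjusted p = 0.286). Auh, a hydratase of leucine breakdown, had 82.6, 86.5 and 96.8 CPM in HFLF, against 66.6, 66.7, 78.7 and 75.8 CPM in LF (0.29 ± 0.07, adjusted p = 0.282). Of 21 genes of branched-chain amino acid breakdown, 17 had a positive fold change with a median of 0.14, and 4 were higher at an unadjusted p under 0.05 (Auh, Mut, Mcee and Pcca; background 3.78%). Mut, Mcee and Pcca together carry propionyl-CoA into the TCA cycle, and Mut had 136, 162 and 182 CPM in HFLF, against 115, 135, 145 and 94.4 CPM in LF (0.39 ± 0.12, adjusted p = 0.282). Without LF 2 the list median was 0.04 and 2 members passed.

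Of 18 genes of mitochondrial fatty acid oxidation, 17 had a positive fold change, but the median was 0.08. At an unadjusted p under 0.05, 4 were higher (background 3.78%). Decr1, a reductase for unsaturated acyl-CoA, had 201, 226 and 247 CPM in HFLF, against 183, 197, 199.9 and 174 CPM in LF, without overlap (0.26 ± 0.08, adjusted p = 0.282). Hadhb of the trifunctional protein had 112, 129.5 and 145 CPM in HFLF, against 106, 114, 117 and 102 CPM in LF, with overlap (0.25 ± 0.08, adjusted p = 0.282). The acyl-CoA dehydrogenases Acadm (0.26 ± 0.09, adjusted p = 0.324) and Acadl (0.22 ± 0.09, adjusted p = 0.362) completed the 4. The median was -0.01 without LF 2, the library lowest for this list, so that the direction of the list rested on LF 2 while that of the 4 named genes was positive in every library left out. Set against HF, 11 of the 18 were higher in HFLF at an unadjusted p under 0.05, with a median of 0.25 (background 4.86%), and HF against LF gave a median of -0.13.

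The remaining leaders of the higher side had other roles. Ptger3, the prostaglandin receptor EP3 that restrains lipolysis in fat cells, had 59.7, 79.7 and 92.9 CPM in HFLF, against 58.7, 45.9, 64.4 and 60.3 CPM in LF, with overlap at LF 5 and LF 6 (0.45 ± 0.12, adjusted p = 0.282). Nacc2, a transcriptional repressor, had 111, 134 and 143 CPM in HFLF, against 111, 82.9, 101 and 91.4 CPM in LF, with HFLF 3 and LF 2 all but equal (0.42 ± 0.11, adjusted p = 0.282). Ston1, an endocytic adaptor, was higher in HFLF by 0.62 ± 0.16 (adjusted p = 0.282), and its HF mean of 13.5 CPM was close to the 13.6 CPM of HFLF, against 8.84 CPM in LF. Ahcyl2, Msrb3, Etfrf1 and Odr4 overlapped between the arms, with log2 fold changes of 0.32 to 0.35. Pcdhga11, at about 1 CPM in HFLF, belongs to a protocadherin cluster whose members share exons, so its count is uncertain, and 1700037C18Rik has no role known with certainty.

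Adipocyte genes themselves differed little. Of 20 genes of adipocyte identity, 13 had a positive fold change, with a median of 0.11. At an unadjusted p under 0.05, 1 was higher (background 3.78%), namely Klb, the co-receptor for FGF21 (0.47 ± 0.21, adjusted p = 0.428). Adipoq, the hormone adiponectin, had 3223, 3813 and 5009.8 CPM in HFLF, against 3294, 2647, 4489.8 and 4791 CPM in LF (0.03 ± 0.16, adjusted p = 0.965). Lep, the hormone leptin, had 986, 2064 and 2694 CPM in HFLF, against 1761, 416, 1112 and 2446 CPM in LF, the lowest value being that of LF 3 (0.45 ± 0.41, adjusted p = 0.741). Pparg, the regulator of the fat cell programme, differed by -0.05 ± 0.13 (adjusted p = 0.92), and Cd36, a fatty acid transporter, by 0.21 ± 0.12 (adjusted p = 0.542). Of 14 adipokine genes, 23 lipogenic genes, 20 glycolytic genes and 19 clock genes, 0 passed an unadjusted p under 0.05 in either direction. Missing the threshold does not show that these genes were alike, since with 4 LF libraries the SE of Fasn, the fatty acid synthase, was 0.38 around a log2 fold change of 0.10.

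Fasn and Slc2a4, which codes for the insulin-responsive glucose carrier GLUT4, had higher means in HFLF than in HF, although 0 genes passed the adjusted threshold in that comparison. Fasn averaged 3957 CPM in HFLF and 1938 CPM in HF, against 3686 CPM in LF, a difference of HFLF from HF of 1.03 (adjusted p = 0.433). Slc2a4 averaged 261 CPM in HFLF and 181 CPM in HF, against 233 CPM in LF, and differed from HF by 0.53 (adjusted p = 0.406). Of the lipogenic genes, 9 of 23 were higher in HFLF than in HF at an unadjusted p under 0.05 (background 4.86%), and 0 differed between HFLF and LF. Insulin signalling had 16 of 21 genes with a positive fold change against LF. Foxo1, the transcription factor that insulin restrains (0.42 ± 0.20, adjusted p = 0.459), and Grb10, an adaptor that dampens the insulin receptor (0.35 ± 0.15, adjusted p = 0.415), were higher at an unadjusted p under 0.05. Over all genes tested, 3.78% were higher and 7.06% lower by this measure. Akt1, a kinase of the pathway, was lower (-0.20 ± 0.08, adjusted p = 0.364), while Insr, the receptor, differed by 0.12 ± 0.14 (adjusted p = 0.81).

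A sterol regulator was among the lower genes. Srebf2, the master regulator of cholesterol synthesis, had 50.4, 56.5 and 62.0 CPM in HFLF, against 91.3, 70.3, 60.2 and 83.8 CPM in LF, with overlap at LF 5 only (-0.43 ± 0.10, adjusted p = 0.266). Mvd, a mevalonate pathway enzyme, was also lower at an unadjusted p under 0.05 (-0.34 ± 0.12, adjusted p = 0.323), while the median of the 23 sterol genes was -0.06. Of 76 cytosolic ribosomal protein genes, 74 had a negative fold change, with a median of -0.14. At an unadjusted p under 0.05, 6 of the 76 were lower, a share near the 7.06% of all genes. Rplp0, of the ribosomal stalk, had 476, 523 and 639 CPM in HFLF, against 628, 655, 498 and 743 CPM in LF (-0.24 ± 0.11, adjusted p = 0.423). All 8 mitochondrially encoded genes in the table had a positive fold change, with a median of 0.18 and 0 at an unadjusted p under 0.05, and without LF 6 the median was 0.02. Of 23 TCA cycle genes, 2 were higher at an unadjusted p under 0.05 (background 3.78%), among them Idh3a, a subunit of isocitrate dehydrogenase (0.30 ± 0.11, adjusted p = 0.329). Among 36 complex I genes, 0 differed at an unadjusted p under 0.05. Of 41 genes of complexes II to V, 23 had a positive fold change and 1 was higher at an unadjusted p under 0.05 (background 3.78%), namely Cox7a1, a muscle-type subunit of cytochrome oxidase (0.58 ± 0.23, adjusted p = 0.358). Ppargc1a, the coactivator of mitochondrial genes, differed by -0.17 ± 0.38 (adjusted p = 0.911). Pdk4, the kinase that closes pyruvate entry and a glucocorticoid target, had 60.5, 102 and 145 CPM in HFLF, against 65.4, 40.6, 57.0 and 76.2 CPM in LF, with wide overlap (0.79 ± 0.31, adjusted p = 0.364), and 16 of its list of 20 glucocorticoid targets and metallothioneins had a positive fold change. Pdk4 was the 1 member higher at an unadjusted p under 0.05, and 2 members were lower, namely Tat (-1.93 ± 0.65, adjusted p = 0.289) and Lcn2 (-1.10 ± 0.48, adjusted p = 0.418), both chosen after their values were seen.

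Small-RNA and imprinted genes were looked at because paternal effects are often discussed through them. Dicer1, the nuclease that matures microRNAs, had 42.3, 44.6 and 49.5 CPM in HFLF, against 39.4, 46.3, 45.6 and 43.0 CPM in LF. The arms overlapped, with LF 2 the lowest library (0.05 ± 0.07, adjusted p = 0.833). Of 25 measured genes of microRNA processing and let-7 targets, 3 were lower at an unadjusted p under 0.05 (background 7.06%). They were the growth regulators Myc (-0.46 ± 0.16, adjusted p = 0.303), E2f2 (-0.81 ± 0.32, adjusted p = 0.362) and Ccnd1 (-0.36 ± 0.15, adjusted p = 0.398). Their log2 fold changes were -0.28 for Myc without LF 3, and -0.33 for E2f2 and -0.22 for Ccnd1 without LF 2. Among 21 imprinted genes, Plagl1, a growth-restraining zinc finger factor, had 50.1, 60.2 and 75.9 CPM in HFLF, against 40.3, 39.4, 57.2 and 44.4 CPM in LF, with overlap at LF 5 (0.41 ± 0.13, adjusted p = 0.282). H19, the imprinted non-coding RNA, had 0.268, 0.478 and 1.08 CPM in HFLF, against 2.77, 9.12, 0.383 and 0.427 CPM in LF: LF 2 and LF 3 were high and LF 5 and LF 6 lay within HFLF. Its log2 fold change was -2.58, and -1.24 without LF 3. Mest, an imprinted marker of fat pad growth in mice, had 203, 318 and 409 CPM in HFLF, against 361, 26.4, 383 and 499 CPM in LF, with LF 3 far below every other library.

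LF 3 differed from the other LF libraries in a collagen gene too. Its mean over the matrix genes, 7.70 log2 CPM, lay within the range of the LF libraries, 7.37 to 7.76. Col1a1, the main chain of type I collagen, had 309, 369 and 551 CPM in HFLF, against 393, 2166, 318 and 595 CPM in LF. Its log2 fold change of -1.13 ± 0.41 (adjusted p = 0.329) was -0.13 without LF 3. Over 30 matrix genes the median was -0.06. Of 21 fibroblast and progenitor markers, 1 was lower at an unadjusted p under 0.05 (background 7.06%), namely Thy1, a surface glycoprotein whose cell of origin was not tested. It had 16.2, 21.6 and 23.1 CPM in HFLF, against 31.6, 29.8, 25.3 and 26.2 CPM in LF, without overlap (-0.43 ± 0.13, adjusted p = 0.282). LF 2, the LF library highest for Thy1, was also the LF library highest for T and NK cell markers. Nrf1, a transcription factor for nuclear genes of mitochondria, was as regular, with 18.3, 19.9 and 23.0 CPM in HFLF, against 24.1, 24.0, 23.1 and 24.5 CPM in LF (-0.23 ± 0.08, adjusted p = 0.3). Of 18 endothelial markers and 14 smooth muscle and pericyte markers, 1 each was higher at an unadjusted p under 0.05 (background 3.78%), with medians of 0.09 and 0.24. The smooth muscle median was -0.06 without HFLF 4, which alone stood high for these markers, at 6.72 log2 CPM, against 5.76 to 5.96 in the other HFLF libraries and 5.73 to 5.97 in LF. Acta1, the actin of skeletal muscle, had 34.0, 72.6 and 113 CPM in HFLF, against 52.6, 20.8, 30.7 and 44.2 CPM in LF (1.02 ± 0.35, adjusted p = 0.296), while the median of the 9 skeletal muscle markers was 0.05.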

How the data were processed

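RNA from eWAT of 6 HFLF, 6 HF and 4 LF F1 males was sequenced as total RNA on an Illumina NovaSeq, per the labels' protocols. The submitters' processing notes name STAR as the aligner and GRCm38.p6 as the genome. No source used here gives the aligner's version, how genes were counted, whether strand was used, the poly(A) or rRNA step or the annotation release, so a gene and its antisense partner cannot be told apart. The authors deposited whole-number counts per gene, filtered on CPM according to the file name. The authors also deposited a table named RPKM, which was not used here.

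The fit used edgeR 4.0.16 under R 4.3.3, with TMM factors (0.947 to 1.05), 1 robust quasi-likelihood fit of the 16 eWAT libraries with a term per arm (13 residual degrees of freedom, biological coefficient of variation 0.219), and Benjamini-Hochberg adjustment over 15987 genes at 0.05. filterByExpr removed 0 genes. SE is the log2 fold change divided by the square root of its F. List means are means of log2 CPM with a prior count of 2, and other levels are CPM. The tissue difference is a tissue-by-arm interaction, fitted together with the 6 HFLF, 5 HF and 4 LF liver libraries. Liver and eWAT libraries of an arm that share a number may come from the same animal. The edgeR fit treated them as independent. A limma voom fit that took such libraries as the same animal also called 0 genes (smallest adjusted p 0.251). Symbols came from GENCODE M21 by gene ID (15974 genes). Promoters came from the RefSeq table of GRCm38.p6 and matched 11570 of the tested genes.

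The members, gene lists and tests were chosen with earlier results of these data known. The genes named are the 15 higher and 15 lower protein-coding genes with the smallest p among those of at least 1 CPM in an arm, list members with the smallest p or highest level, and 8 genes in any case; Cd163 was singled out after its value was seen. Alternatives were limma voom 3.58.1 with and without sample weights, DESeq2 1.42.0, other size factors, filters and designs, and leaving out libraries. The scripts were tested on simulated data. Replicate libraries are separate animals by their numbers only, so p-values measure the spread between these samples, which may be in part technical. No fit took father or litter into account, and animals of an arm may share a father. The p-values therefore do not measure the spread between fathers. Library pairs differed by more than sampling noise. Floors cover counting error alone: the reads carry no molecular identifiers and are not independent molecules.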

Additional observations from a re-analysis of the deposited data

Results flagged for a closer look

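A library was picked out when its gap to the nearest library of its arm, as a share of the arm's range, exceeded Dixon's 95% critical value. This was the case for 29 of 266 arm-by-item groups, where chance alone gives about 5%, and the named genes of a list are not independent of each other. LF 2 was picked out 8 times, LF 3 5 times and LF 6 4 times.

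LF 2 was high in lymphoid genes. Its list means were 6.49 log2 CPM for B cell markers (next LF library 2.84), 5.34 for MHC class II and dendritic cell genes (next 4.15) and 3.84 for cytokines and chemokines (next 2.99). It held 292 CPM of Cxcl13, 76.9 CPM of Ms4a1, 40.3 CPM of Ltb and 12.4 CPM of E2f2, and it was the lowest LF library for Pcca at 109.2 CPM. LF 3 was the highest LF library for Arg1 at 24.0 CPM, Spp1 at 157 CPM, Col1a1 at 2166 CPM, Acadm at 413 CPM and Mcee at 32.9 CPM. LF 6 was low for interferon-induced genes, at 4.03 log2 CPM, and high for red blood cell markers, at 5.38 log2 CPM, for Klb at 27.9 CPM and for Cox7a1 at 3.68 CPM.

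Among the HFLF libraries, HFLF 6 had 0.59 log2 CPM of mesothelium markers and the lowest mean of imprinted genes, 4.70. HFLF 4 had the highest mean of smooth muscle and pericyte markers, 6.72 log2 CPM, with 1.08 CPM of H19 and 18.3 CPM of Myc. HFLF 1 had 3.52 log2 CPM of hepatocyte markers and 4.94 CPM of Fga. HFLF 5 had the highest mean of glucocorticoid targets, 6.58 log2 CPM. HFLF 2 had 5.39 CPM of Spp1 and 639 CPM of Rplp0. HFLF 3 had the lowest Espl1 of its arm, 3.35 CPM, and the highest Tnp2, 0.428 CPM.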

How the results depend on the processing

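DESeq2 called 62 genes where edgeR called 0, and with LF 5 left out edgeR called 13 genes; every other alternative left 0 (13 was the highest and 0 the lowest of the counts with 1 library left out). The adjusted p over the alternatives ran from 0.000204 to 0.656 for Mcm5 and from 0.000536 to 0.656 for Tk1, each with a negative fold change throughout. A fit with the replicate block also called 0 genes (smallest adjusted p 0.444). Deviations of HFLF and LF libraries with the same number correlated at 0.0639 to 0.121, and no library correlated best with its own number. These few values cannot decide whether equal numbers are paired in some way. The tissue difference gave 0 genes in every setting run.

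At an unadjusted p under 0.05, sample quality weights in limma voom gave 731 lower genes, the fit of HFLF and LF alone 325 higher genes and leaving out LF 3 and LF 6 217 higher genes. With 1 library left out, the higher genes numbered 346 (without LF 3) to 926 (without LF 5). Genes without overlap then numbered 126 to 471 on the lower side and 97 to 315 on the higher side, which grow by construction as libraries are removed. They were 676 lower and 410 higher without LF 3 and LF 6, and 1018 lower and 759 higher without LF 3, LF 5 and HFLF 1, a choice made after seeing the data.

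Some named genes changed sign, none of them called in the edgeR fit of all libraries. Without LF 3 and LF 6, log2 fold changes were 0.295 for Trem2, 0.107 for Cyp2e1, 0.142 for Col1a1, -0.0167 for Adipoq, 0.12 for Pparg and 0.153 for Ppargc1a. Without LF 3, LF 5 and HFLF 1 they were 0.906 for Cyp2e1, -0.13 for Lep, -0.0381 for Adipoq, 0.0278 for Pparg and 0.524 for Ppargc1a. Mest had 0.561 in limma voom, 0.443 with quality weights and 0.425 with the replicate block. With 1 library left out, Trf ranged from -0.172 to 0.0188, Cyp2e1 from -0.484 to 0.321, Adipoq from -0.11 to 0.163, Pparg from -0.162 to 0.0221, Fasn from -0.134 to 0.461, Ppargc1a from -0.401 to 0.364 and Mest from -0.412 to 0.28. The cause was not tested. The number of LF libraries, 4, limits the precision.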
